A study of Mus musculus with 4 samples.

Results

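The cells described here are macrophages of the mouse thoracic aorta that carry transcripts of Lyve1, Timd4 or Ccl24. A cell was first counted as a phagocyte with at least 10 unique molecular identifiers (UMIs, each standing for 1 captured transcript) of Lyz2, C1qa and C1qb together, fewer than 10 of the fibroblast genes Dcn and Lum, and at most 2 of the smooth muscle gene Myh11. Phagocytes with at least 3 UMIs of Lyve1, Timd4 and Ccl24 together were taken as Lyve1-gated macrophages. They numbered 673 of 1415 phagocytes and 1.76% of 38316 cells in all. The other 742 phagocytes served for comparison. Because these counts chose the cells, levels of the gate genes are given as description, without a test.

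Lyve1 encodes a hyaluronan receptor, Timd4 a receptor for phosphatidylserine on dying cells, and Ccl24 a chemokine that attracts eosinophils. Macrophages with LYVE1, TIMD4 and folate receptor beta (Folr2) are long-lived residents of many tissues, and in arteries they lie mainly in the adventitia, the outer layer of the wall. Macrophages that arise from recruited blood monocytes more often carry the chemokine receptor CCR2 and MHC class II molecules. STING, encoded by Tmem173, is the adaptor through which cytosolic DNA triggers type I interferon, and interferon in turn raises a large set of antiviral genes.

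There were 4 libraries from 10x Genomics 3′ droplet sequencing, each made from the pooled aortas of 3 mice: Sting-KO mice and wild-type (WT) mice infused with angiotensin II (AngII) for 7 days on 5 weeks of high fat diet, and Sting-KO and WT mice given saline on normal diet. The sources used here give no strain, age or sex, and not which part of Sting was removed. AngII, a hormone that constricts arteries, came together with the high fat diet in both AngII groups, so infusion and diet cannot be told apart. With 1 library per group, differences between treatments or genotypes have no replicate check and no test, and all intervals below cover counting error only. In such data, fewer transcripts per cell and fewer cells of a kind inside the gate cannot be told apart.

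Tmem173 was examined first, as a check of the labels. Lyve1-gated macrophages gave 44.2 CPM (counts of a gene per 1000000 UMIs of the same cells) in the library labelled Sting-KO AngII, 41.3 CPM in WT AngII, 30.2 CPM in the library labelled Sting-KO saline and 27.6 CPM in WT saline. The gene (chromosome 18, 35733679 to 35740554, minus strand, GRCm38) was not depleted in the libraries labelled Sting-KO. Tags at the 3′ end do not check the label where the deletion lies elsewhere, so Sting-KO below means the label. Whole libraries held 8495 to 12053 cells with median depths of 9294 and 9938 UMIs per cell under AngII and 6071 and 5888 UMIs under saline. Between 92 and 148 cell barcodes occurred in both libraries of a pair, which is 1.08% to 1.74% of the smaller library. Gated cells were deeper under AngII too, with medians of 7446 UMIs in Sting-KO AngII, 7459 in WT AngII, 5397 in Sting-KO saline and 4480.5 in WT saline.

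Markers outside the gate matched a resident macrophage label in part. Folr2 was detected in 98.1% of gated cells in Sting-KO AngII, 99.0% in WT AngII, 100% in Sting-KO saline and 97.4% in WT saline, against 0.313% to 1.64% of smooth muscle-gated cells at median depths of 6346 to 10170 UMIs. Other phagocytes carried Folr2 too, in 58.9% of cells in Sting-KO AngII, 52.4% in WT AngII, 50.0% in Sting-KO saline and 26.1% in WT saline. Cd163, a scavenger receptor for haemoglobin bound to haptoglobin, was detected in 72.2% to 80.0% of gated cells and 19.8% to 39.1% of other phagocytes of the 4 libraries. Retnla, a small secreted protein of alternatively activated macrophages, was seen in a minority of 5.26% in Sting-KO AngII, 12.6% in WT AngII, 40.0% in Sting-KO saline and 19.7% in WT saline. The summed level of 6 general macrophage genes (Adgre1, Csf1r, Cd68, Fcgr1, Mrc1, Mertk) was 3085 to 3320 CPM in gated cells and 1792 to 2062 CPM in other phagocytes. Among markers of other cells, 6 endothelial genes summed to 3.78 to 36.8 CPM and 7 dendritic cell genes to 13.1 to 71.8 CPM, with Flt3, Xcr1, Clec9a and Itgae at 0 in all libraries. The T and NK cell genes present in the files were at 0. Lymphatic endothelial genes, of interest because lymphatic vessels also express Lyve1, summed to 0.919 to 52.9 CPM, nearly all of it Pdpn, with Flt4, Mmrn1 and Reln at 0 everywhere. Smooth muscle genes were present at 957 CPM in Sting-KO AngII, 579 CPM in WT AngII, 2405 CPM in Sting-KO saline and 960 CPM in WT saline, so the Sting-KO saline cells carried the most smooth muscle RNA, and its part in the results on that library was not tested.

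Lyve1-gated macrophages made up a smaller share of phagocytes in the AngII libraries. They were 43.6% of phagocytes in Sting-KO AngII (209 of 479 cells, exact Clopper-Pearson 95% interval 39.1 to 48.2), 30.8% in WT AngII (191 of 620, 27.2 to 34.6), 69.2% in Sting-KO saline (45 of 65, 56.6 to 80.1) and 90.8% in WT saline (228 of 251, 86.6 to 94.1). Both AngII intervals lie below both saline intervals, but the intervals of the genotypes do not overlap within either treatment, and all cover counting error only. As a share of all cells the gated macrophages were 2.46% in Sting-KO AngII, 2.25% in WT AngII, 0.373% in Sting-KO saline and 2.46% in WT saline. At full depth 3 of the libraries were thus alike and Sting-KO saline stood below them. Other phagocytes were 3.17% of cells in Sting-KO AngII, 5.05% in WT AngII, 0.166% in Sting-KO saline and 0.248% in WT saline. The AngII libraries therefore differed from the saline libraries of the same genotype in the number of other phagocytes. At full depth, the lower gated share in WT AngII came with a nearly equal share of all cells, which did not hold after thinning (below).

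Depth did not turn round the order of the shares of phagocytes. With each phagocyte thinned to 2000 UMIs, which left out 3 of 1415 cells, at least 3 gate UMIs were found in 15.4% of phagocytes in Sting-KO AngII, 12.7% in WT AngII, 51.6% in Sting-KO saline and 78.7% in WT saline. These were 74 of all 8507 cells in Sting-KO AngII, 79 of 8495 in WT AngII, 33 of 12053 in Sting-KO saline and 196 of 9261 in WT saline. As a share of all cells, both AngII libraries thus lay below WT saline after thinning. Smooth muscle-gated cells, which should lack the gate genes, reached 3 gate UMIs in 1 cell of each library. Fibroblast-gated cells did so in 10 of 1904 cells in Sting-KO AngII (0.525%), 1 of 1723 in WT AngII, 1 of 641 in Sting-KO saline and 0 of 1053 in WT saline, where the upper limit was 0.350%. These shares follow tissue digestion and a sort of live cells.

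**Figure D1:**
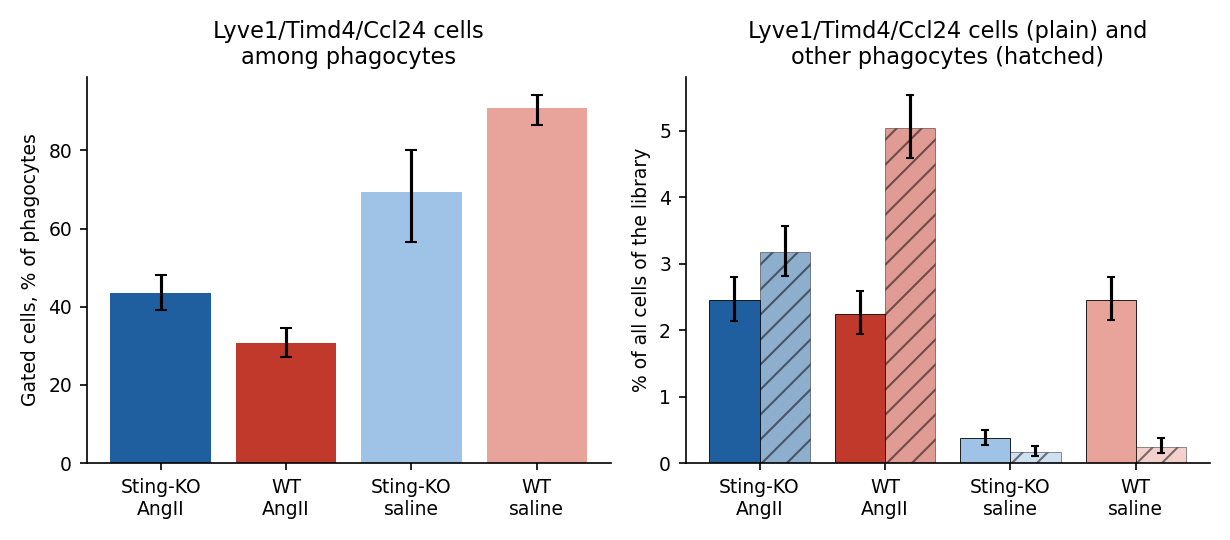
Share of cells in percent (vertical axes) in each of the 4 libraries, for gated macrophages among phagocytes and for gated macrophages and other phagocytes among all cells; error bars are exact binomial 95% intervals, with 1 library of 3 pooled mice per group. The gated share of phagocytes was 43.6% and 30.8% in the AngII libraries against 69.2% and 90.8% in the saline libraries of Sting-KO and WT mice.

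The 3 gate genes did not contribute alike. Lyve1 (chromosome 7, 110850607 to 110863239, GRCm38) was detected in 650 of the 673 cells, Ccl24 (chromosome 5, 135569937 to 135573049) in 460 and Timd4 (chromosome 11, 46810800 to 46844332) in 262, and 186 cells carried all 3. Lyve1 stood at 818 CPM in Sting-KO AngII and 972 CPM in Sting-KO saline, and at 796 CPM in WT AngII and 2299 CPM in WT saline. Ccl24 stood at 244 CPM in Sting-KO AngII and 1104 CPM in Sting-KO saline, and at 293 CPM in WT AngII and 1228 CPM in WT saline, so its level inside the gate was several-fold below saline under AngII in either genotype. Timd4 was at 58.2 CPM in Sting-KO AngII, 99.7 CPM in WT AngII, 166 CPM in Sting-KO saline and 135 CPM in WT saline. At the edge of the gate, the 56 cells with exactly 3 gate UMIs and the 77 phagocytes with exactly 2 had 1068 and 1068 CPM of Folr2, 279 and 292 CPM of Cd163, and 1594 and 2445 CPM of the class II invariant chain Cd74. The threshold thus cuts through cells with the same pooled Folr2 level. For Cd74 the direction differed by library. At 3 against 2 gate UMIs it was lower in Sting-KO AngII (69.4 against 439 CPM) and WT AngII (1714 against 4361 CPM). It was higher in Sting-KO saline (5914 against 434 CPM, from 5 and 4 cells) and WT saline (6567 against 5648 CPM).

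Timd4 also marked differences inside the gate, a split chosen after the values were seen and described without a test. By summed CPM, the 262 gated cells with Timd4 had lower Cd74 than the 411 without it in each library: 250 against 1237 CPM in Sting-KO AngII, 503 against 2363 CPM in WT AngII, 3694 against 8392 CPM in Sting-KO saline, and 3064 against 3647 CPM in WT saline. Over the pooled cells, Cd74 was detected in 45.8% with Timd4 and 51.1% without, and H2-Ab1 in 32.06% and 32.12%. By library, Cd74 was detected in 29.1% against 37.0% of cells in Sting-KO AngII and 38.4% against 52.4% in WT AngII. In Sting-KO saline it was 54.2% against 85.7%, and in WT saline 59.8% against 61.1%. H2-Ab1 was detected in 18.2% against 14.9% in Sting-KO AngII and 37.2% against 42.9% in WT AngII. In Sting-KO saline it was 37.5% against 71.4%, and in WT saline 34.0% against 37.4%. The part of cells rich in these transcripts in the CPM gap was not tested. Folr2 was higher with Timd4 in all 4 libraries, at 1954 against 1407 CPM over the pooled cells. The lectin receptor Cd209f was likewise higher in all 4, with 768 against 324 CPM pooled. Cells with Timd4 were deeper in 3 libraries and nearly equal in WT AngII (medians of 8436 against 7330 UMIs in Sting-KO AngII, 7459 against 7431 in WT AngII, 6046.5 against 4149 in Sting-KO saline and 4595 against 4372 in WT saline), and the part of depth was not tested.

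Set against other phagocytes of the same library, Lyve1-gated macrophages carried a broad resident macrophage programme outside the gate genes. Counts were summed per library and cell set and compared with edgeR's quasi-likelihood test with the library as a block, which makes 4 pairs of pooled mice. Of 7708 genes tested, 651 (8.45%) were higher and 535 (6.94%) lower in gated cells at a Benjamini-Hochberg adjusted p under 0.05. Because both sets were split by transcripts of the same cells, genes that accompany the gate genes had to differ, and the test says which genes these are. DESeq2 called 260 higher and 333 lower. The other phagocytes of Sting-KO saline and WT saline were only 20 and 23 cells. The counts fell to 301 higher and 260 lower without Sting-KO AngII, and to 223 and 207 without WT AngII. Endothelial genes in other phagocytes summed to 14.5 CPM in Sting-KO AngII and 12.1 CPM in WT AngII, against 281 CPM in Sting-KO saline and 660 CPM in WT saline, and their part in the result was not tested.

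Of 27 resident macrophage genes outside the gate, 25 passed the filter on low counts, 23 of these were called higher and 0 lower, and the median log2 difference was 1.85, beside 0.05 over all genes tested. Folr2 had 1296 to 2110 CPM in gated cells against 161 to 364 CPM in other phagocytes (log2 fold change 2.47 ± 0.27 SE, edgeR adjusted p = 0.000251). Cd163 had 390 to 974 CPM in gated cells against 79.8 to 237 CPM (2.21 ± 0.16, adjusted p = 3.11e-16). Ranges of both genes did not overlap between the sets. Ltc4s, the enzyme that makes leukotriene C4, had 637 to 1104 CPM against 123 to 279 CPM, a log2 difference of 2.36. F13a1, the A subunit of coagulation factor XIII, and the mannose receptor Mrc1 were higher by 2.12 and 1.42. Retnla had 382 to 5595 CPM against 62.5 to 3455 CPM, and neither it (log2 1.95, adjusted p = 0.112) nor the platelet factor Pf4 (1.39, adjusted p = 0.118) was called.

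C-type lectins of the Cd209 family, relatives of DC-SIGN that bind sugars on microbes, stood among the largest differences. Cd209d had 145 CPM in Sting-KO AngII, 68.9 in WT AngII, 284 in Sting-KO saline and 53.3 in WT saline in gated cells, against 0 to 8.46 CPM in other phagocytes (log2 3.90 ± 0.24). Cd209f differed by 3.37, Cd209g by 3.33 and Cd209b by 2.83. Cd209f was detected in 28.8% to 60.0% of gated cells per library. Its call was lost without WT saline. The other genes with the 12 largest differences were Enpep (aminopeptidase A, which trims angiotensin II), Siglech, the soluble lectin Fcna, Gprc5b, the growth factor receptor Egfr, Dnm1, the sodium pump subunit Fxyd2 and the secreted phospholipase Pla2g2d, with log2 differences of 2.55 to 4.06. Enpep was low, at 11.0 to 22.7 CPM in gated cells against 0 to 1.45 CPM in other phagocytes, and smooth muscle-gated cells had up to 23.6 CPM. Of 20 scavenger and lectin receptor genes, 18 passed the filter, with 10 called higher and 1 lower (Clec4n, log2 change -1.02). Of 16 genes of iron and haem handling, 14 passed, with 8 higher, among them Cd163 and the haem-breakdown enzyme Blvrb (0.97), and 2 lower, the ferritin heavy chain Fth1 (-0.64) and Slc11a1 (-0.55).

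**Figure D2:**
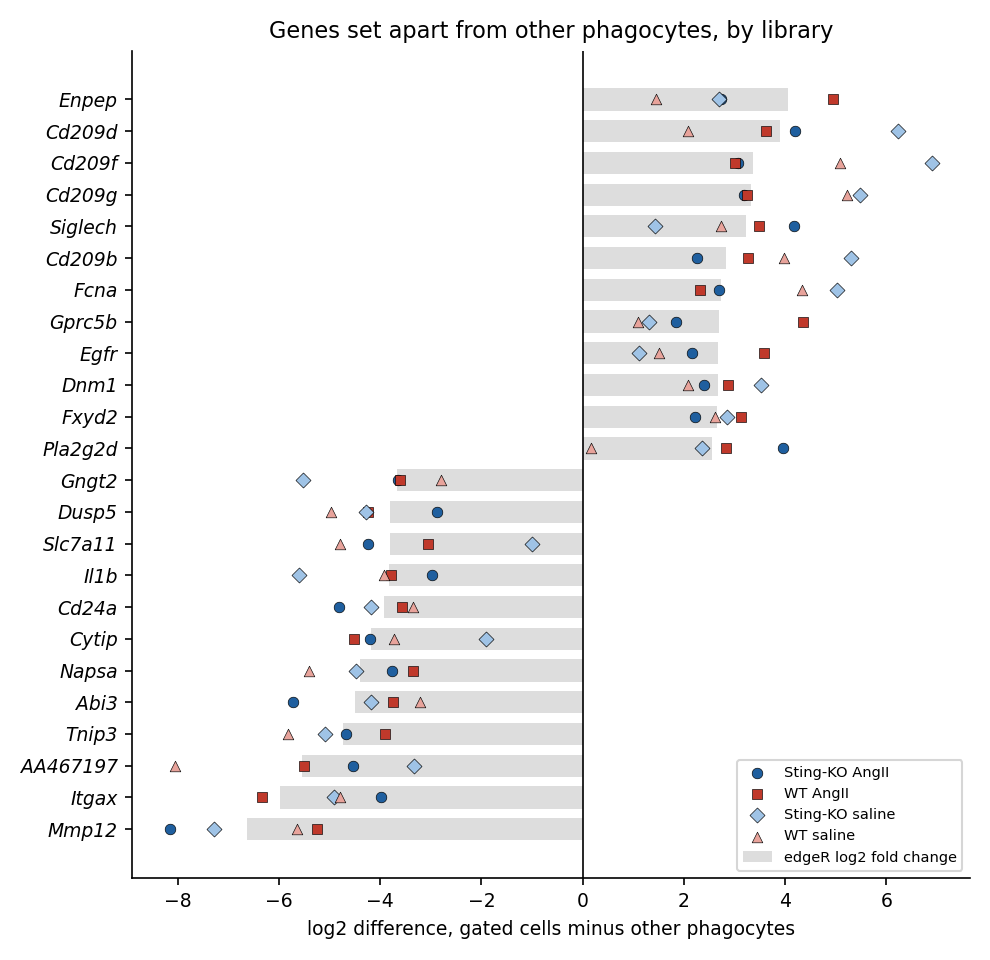
Log2 difference between gated macrophages and other phagocytes (horizontal axis) for the 12 highest and 12 lowest genes chosen by rule; points are the 4 libraries and bars the edgeR estimate. The rule asked for the same sign in all 4 libraries, and the estimates run from Enpep at 4.06 to Mmp12 at -6.63.

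Antigen presentation by class II and inflammatory genes were lower in gated cells. Of 11 class II presentation genes, 8 passed the filter, 6 were called lower and 0 higher, with a median of -1.76. H2-Ab1 had 314 CPM in Sting-KO AngII, 502 in WT AngII, 1380 in Sting-KO saline and 641 in WT saline in gated cells, against 1364 CPM in Sting-KO AngII, 2458 in WT AngII, 4185 in Sting-KO saline and 2317 in WT saline in other phagocytes (log2 change -1.99 ± 0.15, adjusted p = 3.14e-15). Cd74 differed by -1.85. Of 20 inflammatory cytokine and regulator genes, 18 passed, 13 were lower and 2 higher, and the median was -1.08. Il1b, which encodes interleukin-1 beta, had 30.2 to 69.2 CPM in gated cells and 543 to 1549 CPM in other phagocytes (-3.82 ± 0.32, adjusted p = 0.000137). Among other phagocytes 1 cell gave 64.2% of the Il1b UMIs in Sting-KO saline and 47.5% in WT saline. The 2 higher genes were the receptors Tlr4 (1.03) and Il6ra (0.51).

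Mmp12, macrophage elastase, was the lowest of the named genes and had 0 to 1.84 CPM in gated cells and 62.2 to 289 CPM in other phagocytes (log2 change -6.63 ± 0.37, adjusted p = 1.70e-19). Itgax, which encodes CD11c, gave 1 UMI in all gated cells together and 8.46 to 53.2 CPM in other phagocytes. The others of the 12 were AA467197, Tnip3, Abi3, Napsa, Cytip, Cd24a, Il1b, the cystine transporter Slc7a11, the phosphatase Dusp5 and Gngt2, at -5.54 to -3.67. Among other phagocytes of WT saline, 1 cell gave 90.5% of the Tnip3 UMIs and 1 cell gave 80% of the Cd24a UMIs. Of 16 recruited monocyte genes, 9 passed, with 4 lower and 1 higher, the integrin Itgam (0.52). The 4 lower were Ccr2 (-2.48), Thbs1 (-3.61), Clec4e (-2.20) and Plac8 (-0.84). In Sting-KO saline and in WT saline, all Thbs1 UMIs of other phagocytes came from 1 cell. Glycolysis and hypoxia genes had 8 of 16 lower and 0 higher, and the unfolded protein response had 0 of 14 in either direction.

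Interferon-stimulated genes were somewhat higher in gated cells than in other phagocytes. Of 26 such genes, 23 passed the filter, 11 were higher and 0 lower, with a median of 0.68. Ifi27l2a led with 2378 to 9348 CPM in gated cells and 851 to 2305 CPM in other phagocytes (log2 1.75 ± 0.14, adjusted p = 5.13e-14), followed by Ifit1 (1.43), Ifi47 (1.29) and Ifit3 (1.26). Among complement and Fc receptor genes 6 of 14 were higher, including C4b (1.78), the properdin gene Cfp (0.87) and C1qc (0.64), and 2 were lower, Fcgr4 (-1.57) and Itgax. Among 22 transcription factor genes, those called higher included Maf (1.47), Klf2 (0.97) and Tfec (0.96), whereas 7 were lower, led by Id2 (-1.73). Gas6 (1.48) and Pros1 (1.50), ligands that bridge dying cells to their receptors, were higher.

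AngII and saline were compared inside the gate by the log2 ratio of CPM, with exact conditional 95% intervals. A gene counted as measured when the higher of the 2 libraries had at least 20 UMIs, and was called apart at 2-fold. This minimum favours the library with more UMIs, and gated cells gave 1718649 UMIs in Sting-KO AngII, 1524511 in WT AngII, 264503 in Sting-KO saline and 1087724 in WT saline. In WT, 418 of 6212 genes (6.73%) were higher and 210 (3.38%) lower in AngII. In Sting-KO, 617 of 4337 genes (14.2%) were higher and 105 (2.42%) lower, with only 45 saline cells. Among 3960 genes measured in both genotypes, 83 were higher in both, which is 16.5% of the 502 higher in Sting-KO and 37.1% of the 224 higher in WT. There 19 were lower in both, 18.8% of 101 in Sting-KO and 25.3% of 75 in WT. These comparisons share no library. Pooling the 2 genotypes gave 444 of 7346 genes higher (6.04%) and 216 lower (2.94%) under AngII, among them Pdpn with 38.9 CPM in AngII and 1.48 CPM in saline (log2 ratio 4.72).

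Ccl8, a monocyte-attracting chemokine, was higher under AngII in both genotypes. It stood at 4113 CPM in Sting-KO AngII and 798 CPM in Sting-KO saline (log2 ratio 2.37, interval 2.17 to 2.57), and at 6146 CPM in WT AngII and 325 CPM in WT saline (4.24, 4.09 to 4.40). The transcript was found in 83.3% of gated cells in Sting-KO AngII, 84.8% in WT AngII, 53.3% in Sting-KO saline and 37.7% in WT saline, against 3.64% of smooth muscle-gated cells in Sting-KO AngII, 6.50% in WT AngII, 0.566% in Sting-KO saline and 0.190% in WT saline. Fibroblast-gated cells carried it more often and also differed between treatments, with 23.8% in Sting-KO AngII, 17.1% in WT AngII, 3.28% in Sting-KO saline and 2.37% in WT saline, at median depths of 11779, 9121, 3693 and 3618 UMIs in that order. Thinned to 2000 UMIs, the gated shares were 68.4% in Sting-KO AngII, 72.3% in WT AngII, 44.4% in Sting-KO saline and 27.4% in WT saline. Other phagocytes were also apart, with 1030 CPM in Sting-KO AngII and 38.0 CPM in Sting-KO saline, and 2104 CPM in WT AngII and 33.8 CPM in WT saline.

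Vsig4, a complement receptor of resident macrophages, was the 1 resident gene higher in both genotypes, at 447 CPM in Sting-KO AngII and 52.9 CPM in Sting-KO saline (log2 ratio 3.08), and at 360 CPM in WT AngII and 87.3 CPM in WT saline (2.04). Against it, 5 of 24 resident genes were lower in Sting-KO AngII (Retnla, Mgl2, Clec10a, Cd209f and Cd209b) and 3 of 25 in WT AngII (Mgl2, Cd163 and Fgfr1), with list medians of -0.68 in Sting-KO and -0.23 in WT beside 0.30 and 0.09 over all genes. Mgl2, a galactose-binding lectin, had 79.1 CPM in Sting-KO AngII and 839 CPM in Sting-KO saline, and 131 CPM in WT AngII and 403 CPM in WT saline. Mmp9, gelatinase B, had 8.73 CPM in Sting-KO AngII and 90.7 CPM in Sting-KO saline (-3.38, -4.41 to -2.39), and 0.656 CPM in WT AngII and 19.3 CPM in WT saline (-4.88, -10.2 to -2.24). Of lipid handling genes, 8 of 17 were higher and 2 lower in Sting-KO AngII, with a median of 0.65, and 4 of 16 were higher and 0 lower in WT AngII, with a median of 0.58 that includes 1 gene held at the 3 UMI floor. The summed level of that list was nonetheless lower under AngII, with 22419 CPM in Sting-KO AngII and 24956 CPM in Sting-KO saline, and 29843 CPM in WT AngII and 31356 CPM in WT saline. The lectin Lgals3 had 800 CPM in Sting-KO AngII and 272 CPM in Sting-KO saline, and 860 CPM in WT AngII and 327 CPM in WT saline. The protease Ctsd had 2016 CPM in Sting-KO AngII and 662 CPM in Sting-KO saline, and 1530 CPM in WT AngII and 582 CPM in WT saline.

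In WT alone, the other genes farthest above saline were Gbp2, an interferon-induced GTPase (93.1 CPM in WT AngII and 3.68 CPM in WT saline, log2 ratio 4.66, interval 3.27 to 6.56), Plac8 (38.7 CPM in WT AngII and 0 UMIs in WT saline), Saa3 and Spp1. Saa3 came to 97.8% from 1 cell. Spp1, osteopontin, had 251 CPM in WT AngII and 0 UMIs in WT saline. It was found in 18.3% of gated cells in WT AngII and 22.4% of smooth muscle-gated cells, at median depths of 7459 and 10170 UMIs. The 10 richest gated cells held 91.4% of its 383 UMIs, with 91 in 1 cell. Its level was thus not read as general to gated cells, and the part of free RNA was not tested. Below saline stood Ttc39c (5.25 CPM in WT AngII and 74.5 CPM in WT saline), Amica1, Ear2 and Fkbp5, with log2 ratios of -3.83, -3.95, -3.07 and -2.59. Ear2 came from 2 cells in either library. Fkbp5 is a glucocorticoid-induced gene, and 5 of 10 genes of that list were lower in WT AngII, the others being Sult1a1 (-1.99), Cd163, Mt1 and Mt2, with a median of -0.98. In Sting-KO 2 of 9 were lower and 1 higher, and the median was 0.05. The summed list differed in WT outside the gate as well, with 1531 CPM in WT AngII and 8379 CPM in WT saline in smooth muscle-gated cells, 3807 CPM in WT AngII and 12282.5 CPM in WT saline in fibroblast-gated cells, and 2482 CPM in WT AngII and 4254 CPM in WT saline in other phagocytes. Gated cells had 2648 CPM in WT AngII and 5369 CPM in WT saline. In Sting-KO AngII and Sting-KO saline the list summed to 2033 and 2071 CPM in smooth muscle-gated cells. Fibroblast-gated cells had 3584 and 4281 CPM in that order, other phagocytes 3108 and 2294 CPM, and gated cells 3363 and 3293 CPM. WT saline thus stood above the other libraries in each of these cell sets. The part of this wider difference in the gated cells' values was not tested.

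In Sting-KO, the neutrophil-attracting chemokine Cxcl1 stood at 479 CPM under AngII and 41.6 CPM under saline (log2 ratio 3.53, interval 2.68 to 4.53), whereas it was 193 CPM in WT AngII and 185 CPM in WT saline. In fibroblast-gated cells a list of CC and CXC chemokines summed to 4863 CPM in Sting-KO AngII, 1141 CPM in Sting-KO saline, 2714 CPM in WT AngII and 653 CPM in WT saline. The part of free RNA in the Cxcl1 values was not tested. Tnfaip2 and Lrg1 had 61.7 and 59.9 CPM in Sting-KO AngII and 0 UMIs in Sting-KO saline. With 3 UMIs put in place of 0 this is 5.44-fold and 5.28-fold higher. Pam had 48.9 CPM in Sting-KO AngII and 446 CPM in Sting-KO saline. Smooth muscle-gated cells had 631 CPM and 1963 CPM of Pam in the same 2 libraries, which carried 957 CPM and 2405 CPM of smooth muscle markers in gated cells.

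**Figure D3:**
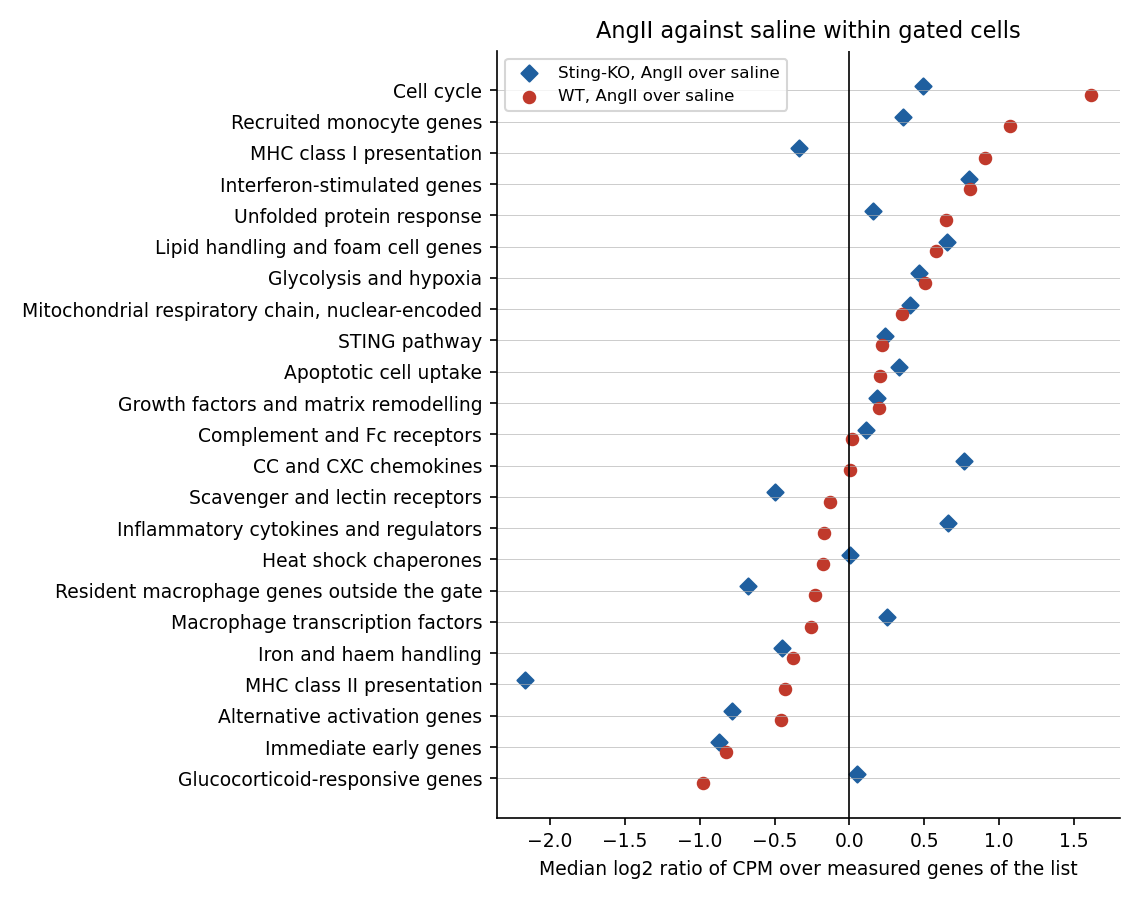
Median log2 ratio of CPM between AngII and saline (horizontal axis) inside the gate for each gene list (vertical axis), in Sting-KO and in WT; each point is the median of the measured genes of 1 list in 1 pair of libraries and carries no test. Cell cycle genes lay at 0.49 in Sting-KO and 1.61 in WT, and class II genes at -2.16 in Sting-KO and -0.43 in WT.

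Cell cycle genes were higher in WT AngII, with 15 of 20 at least 2-fold above WT saline and 0 below, and a median log2 ratio of 1.61 beside 0.09 over all genes. Top2a had 98.4 CPM in WT AngII and 31.3 CPM in WT saline, and Mki67 had 46.6 CPM in WT AngII and 15.6 CPM in WT saline. At least 5 UMIs of 10 mitotic genes were found in 12.6% of gated cells in WT AngII (24 of 191, 8.22 to 18.1) and 3.51% in WT saline (8 of 228, 1.53 to 6.80). After thinning the WT AngII share was 6.28% (12 of 191, 3.29 to 10.7). For WT saline it was 2.21% (5 of 226, 0.722 to 5.09), and the intervals overlap. In Sting-KO 3 of 14 measured genes were higher, and the shares were 13.4% in Sting-KO AngII (28 of 209) and 6.67% in Sting-KO saline (3 of 45). Other phagocytes held 17.0% such cells in Sting-KO AngII and 15.6% in WT AngII. Transcripts of the 10 mitotic genes were concentrated in few gated cells. The 10 richest cells held 57.9% of these UMIs in Sting-KO AngII, 73.6% in WT AngII, 100% in Sting-KO saline and 93.7% in WT saline. In Sting-KO saline 10 cells are a larger part of the 45 gated cells. Its shares of the 10 richest cells, here and below, are not compared with other libraries. The part of the few richest cells in the 15 higher genes was not tested.

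Lists of stress genes did not move alike under AngII. For comparison, 14.2% of all measured genes were higher and 2.42% lower in Sting-KO, and 6.73% were higher and 3.38% lower in WT. Of the immediate early genes, which tissue digestion also induces, 6 of 18 were lower and 1 higher in Sting-KO, and 4 of 18 were lower and 0 higher in WT, with medians of -0.87 and -0.82. Of the heat shock chaperones, 2 of 10 were lower and 0 higher in Sting-KO (median 0.0037), and 3 of 11 lower and 0 higher in WT (-0.18). Of the unfolded protein response genes, 1 of 13 was higher and 0 lower in Sting-KO (0.15), and 2 of 14 were higher and 0 lower in WT (0.65). The Sting-KO median of this list lay below the median over all genes, so the list is not read as higher there. The heat shock gene Hspa1a had 952 CPM in Sting-KO AngII and 3108 CPM in Sting-KO saline, and 954 CPM in WT AngII and 3508 CPM in WT saline. Fibroblast-gated cells differed the same way in this gene, with 298 CPM in Sting-KO AngII and 1549 CPM in Sting-KO saline, and 345 CPM in WT AngII and 1719 CPM in WT saline. In smooth muscle-gated cells the summed heat shock list was higher under AngII in Sting-KO, with 9520 CPM in Sting-KO AngII and 5417 CPM in Sting-KO saline, and lower in WT, with 4674 CPM in WT AngII and 6028 CPM in WT saline. The part of these differences in the other results was not tested.

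Sting-KO and WT gated macrophages under AngII differed most in interferon-stimulated genes. Of 6718 genes measured, 121 (1.8%) were higher and 224 (3.33%) lower in Sting-KO AngII at 2-fold. Of the interferon list, 24 genes were measured, 20 were lower and 0 higher, with a median log2 ratio of -1.70 beside -0.01 over all genes. Irf7, a transcription factor that amplifies interferon production, had 16.9 CPM in Sting-KO AngII and 157 CPM in WT AngII (-3.22, -3.83 to -2.66). Ifit1 had 18.0 and 110 CPM (-2.60), Oasl2 21.5 and 123 CPM (-2.51), and Isg15 35.5 and 161 CPM (-2.18) in Sting-KO AngII and WT AngII. The 4 genes under 2-fold were Ifi27l2a (-0.65), Rsad2 (-0.86), Stat2 (-0.17) and the chemokine Cxcl10 (0.67, with 113 CPM in Sting-KO AngII and 70.8 CPM in WT AngII). Oas3, Pydc4, Slfn1, Irf7 and AW112010 were the lowest genes by rule, at -4.49, -3.98, -3.84, -3.22 and -3.02. Slfn1 gave 0 UMIs in Sting-KO AngII, and its ratio puts 3 UMIs in place of 0. Class I presentation genes followed, with 6 of 10 lower, 0 higher and a median of -1.22. H2-K1 had 497 CPM in Sting-KO AngII and 1216 CPM in WT AngII.

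The same difference was present outside the gate. Among other phagocytes 23 of 26 interferon-stimulated genes were lower in Sting-KO AngII, where 4.13% of all genes were, with a median of -1.94 that includes 4 genes held at the 3 UMI floor. The summed interferon list was 380 CPM in Sting-KO AngII and 2296 CPM in WT AngII in fibroblast-gated cells, and 93.98 CPM in Sting-KO AngII and 150 CPM in WT AngII in smooth muscle-gated cells. In gated macrophages it was 6795 CPM in Sting-KO AngII and 11768 CPM in WT AngII, of which Ifi27l2a made up 5973 CPM in Sting-KO AngII and 9348 CPM in WT AngII.

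**Figure D4:**
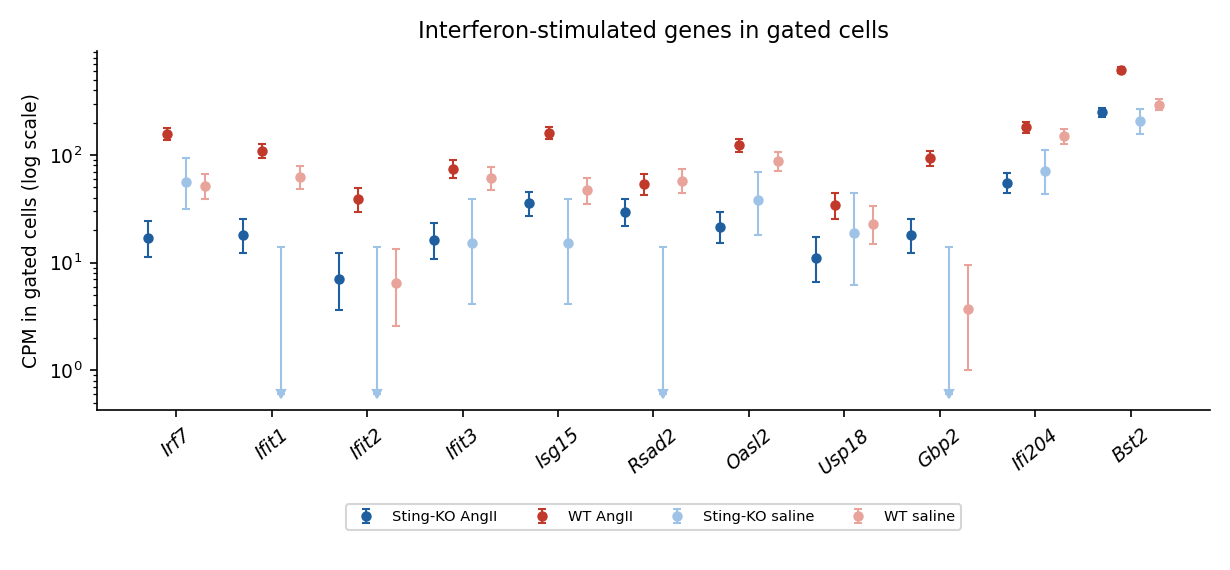
Level of interferon-stimulated genes in gated macrophages (vertical axis, CPM on a log scale) in the 4 libraries; points are sums over the cells of a library, error bars exact Poisson 95% intervals, and downward triangles mark 0 UMIs with a line to the upper limit. Sting-KO AngII lies below WT AngII for Irf7, with 16.9 against 157 CPM, and Sting-KO saline gave 0 UMIs of Ifit1 and Rsad2.

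Under AngII, a few genes were higher in Sting-KO. The sterol synthesis genes Sqle (14.5 CPM in Sting-KO AngII and 1.97 CPM in WT AngII, log2 ratio 2.89, interval 1.17 to 5.26) and Cyp51 (20.4 CPM in Sting-KO AngII and 3.94 CPM in WT AngII, 2.37) led, though from 25 and 35 UMIs. Cd209a had 39.6 CPM in Sting-KO AngII and 10.5 CPM in WT AngII, and the kinase Plk2 had 148 CPM in Sting-KO AngII and 54.4 CPM in WT AngII. Cxcl1 had 479 CPM in Sting-KO AngII and 193 CPM in WT AngII (1.31, 1.12 to 1.51). Resident genes were close to each other, with 0 of 25 higher, 1 lower (Retnla) and a median of -0.10.

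Under saline, interferon-stimulated genes were also lower in Sting-KO, where few genes could be measured. Of 3748 genes 70 (1.87%) were higher and 401 (10.7%) lower, where the UMI minimum admits more genes that are high in the larger WT saline total. Of 18 interferon genes measured 9 were lower and 0 higher, with a median of -0.99 beside -0.21 over all genes. Ifit1 and Rsad2 gave 0 UMIs in 45 Sting-KO saline cells and 68 and 63 UMIs in 228 WT saline cells. With 3 UMIs put in place of 0 this is 5.51-fold and 5.11-fold lower. Isg15 had 15.1 CPM in Sting-KO saline and 46.9 CPM in WT saline. The chemokines Cxcl2 (1788 CPM in Sting-KO saline and 6258 CPM in WT saline, log2 ratio -1.81) and Cxcl1 (41.6 CPM in Sting-KO saline and 185 CPM in WT saline, -2.15) and the gene Ttc39c (-3.30) were lower in Sting-KO saline. Pam (4.06), Cd209d (2.41), Bmp2 (2.74), Hist1h2ap (2.53) and Tmsb10 (2.43) were the highest, of which single cells gave 52.9%, 55.9% and 68.9% of the Sting-KO UMIs for the last 3.

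Per cell, interferon transcripts passed a count threshold in more gated cells of WT AngII than of Sting-KO AngII. They were uneven among cells in every library. The 10 richest cells held 59.6% of the UMIs of the 10 genes below in Sting-KO AngII, 36.9% in WT AngII, 92.3% in Sting-KO saline and 30.7% in WT saline. Sting-KO saline held only 65 such UMIs in 45 cells. At least 5 UMIs of 10 interferon genes (Isg15, Ifit1, Ifit2, Ifit3, Irf7, Rsad2, Usp18, Oasl2, Rtp4, Xaf1) were found in 6.22% of gated cells in Sting-KO AngII (13 of 209, 3.35 to 10.4), 40.3% in WT AngII (77 of 191, 33.3 to 47.6), 6.67% in Sting-KO saline (3 of 45, 1.40 to 18.3) and 18.0% in WT saline (41 of 228, 13.2 to 23.6). After thinning to 2000 UMIs the shares were 0.957% in Sting-KO AngII, 9.95% in WT AngII, 2.22% in Sting-KO saline and 9.73% in WT saline. The genotypes remained apart under AngII, whereas WT AngII and WT saline were then alike, so the higher unthinned share in WT AngII is not read as more responding cells. By CPM, 9 of 24 interferon genes were 2-fold higher in WT AngII than in WT saline and 0 lower, among them Isg15 (1.78), whereas Ifit3 (0.30) and Rsad2 (-0.11) were close. In Sting-KO, 12 genes could be measured between AngII and saline, with 5 higher and 1 lower. Smooth muscle-gated cells reached 5 such UMIs in 0.131% of cells in Sting-KO AngII and 0.928% in WT AngII. Fibroblast-gated cells reached them in 1.21% of cells in Sting-KO AngII and 20.8% in WT AngII, so the genotypes were apart there too.

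Class II genes were unevenly held among gated cells. At least 10 UMIs of Cd74, H2-Aa, H2-Ab1 and H2-Eb1 together were found in 8.13% of gated cells in Sting-KO AngII (17 of 209), 18.3% in WT AngII (35 of 191), 40.0% in Sting-KO saline (18 of 45) and 33.3% in WT saline (76 of 228). Thinning gave 6.22% in Sting-KO AngII, 12.04% in WT AngII, 33.3% in Sting-KO saline and 26.1% in WT saline. The 10 cells richest in these transcripts held 87.96% of them in Sting-KO AngII, 68.7% in WT AngII and 36.0% in WT saline. In Sting-KO saline, with 45 cells, the 10 richest held 85.9%. By summed CPM, 6 of 8 class II genes were lower in Sting-KO AngII than in Sting-KO saline (median -2.16), and 1 of 8 lower in WT AngII than in WT saline (Cd74, -1.16). Cd74 had 950 CPM in Sting-KO AngII and 5618 CPM in Sting-KO saline, and 1514 CPM in WT AngII and 3386 CPM in WT saline.

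Retnla was rarer still among gated cells. It stood at 382 CPM in Sting-KO AngII and 5595 CPM in Sting-KO saline (log2 ratio -3.87), and at 1200 CPM in WT AngII and 2132 CPM in WT saline (-0.83). In Sting-KO AngII 1 cell gave 65.8% of its UMIs, and the 10 richest cells gave 99.8% in Sting-KO AngII, 98.6% in WT AngII, 97.6% in Sting-KO saline and 72.5% in WT saline. At least 5 UMIs were found in 4 cells of Sting-KO AngII, 9 of WT AngII, 13 of Sting-KO saline and 29 of WT saline. These 55 cells, a split made after the values were seen, had more Cd74 than the other 618 in each library, from 16386 against 703 CPM in Sting-KO AngII to 3552 against 3359 CPM in WT saline, where the values were close. H2-Ab1 was higher in them in 3 libraries but not in WT saline, which holds 29 of the 55 cells, with 546 against 656 CPM. Clec10a was also higher in them in all 4 libraries, at 476 against 142 CPM pooled, and Lyve1 was detected in 85.5% against 97.6% of cells.

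**Figure D5:**
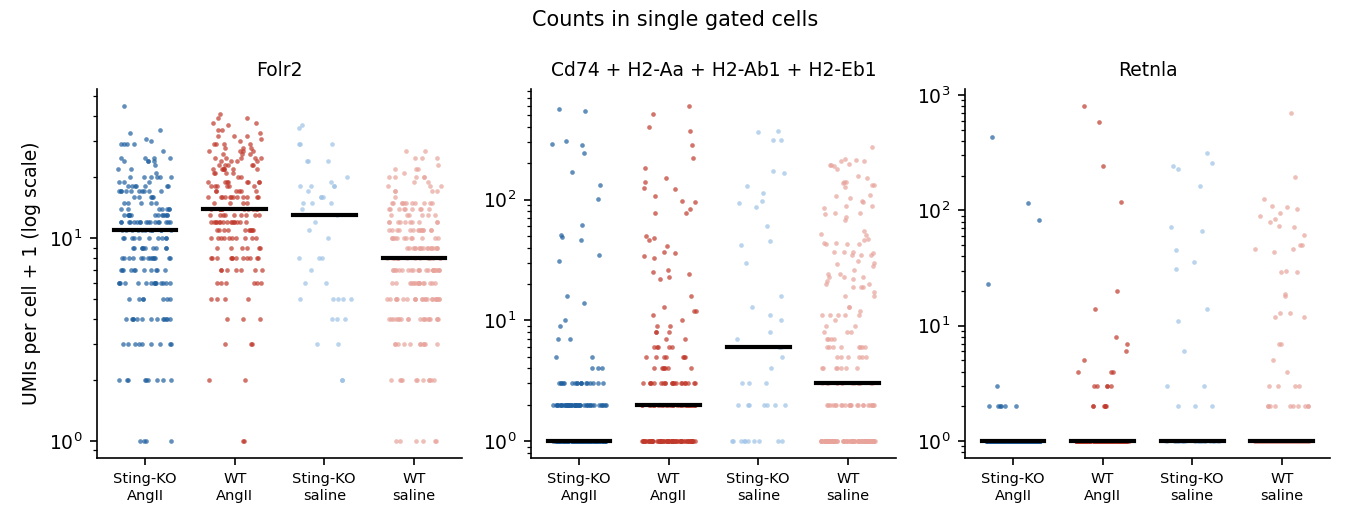
UMIs per gated macrophage (vertical axis, UMIs + 1 on a log scale) of Folr2, of 4 class II genes together and of Retnla in the 4 libraries; each point is 1 cell and the black line is the median over cells. Folr2 was present in 97.4% to 100% of cells, and most cells lie at the bottom for Retnla, where 4 to 29 cells per library had at least 5 UMIs.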

How the data were processed

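The authors deposited raw counts of unique molecular identifiers (UMIs) per gene and cell, with no normalization, in 1 table per library covering 17524 genes. Cell Ranger and the mouse build mm10 appear in the submitters' processing notes, and the sources used here name no version of it. The cells, gene lists and splits described were chosen with earlier results of these data known. Each library is 1 sample of 3 pooled mice, with 60064038 to 94698727 UMIs. Cells were gated on raw counts, no doublet caller was run, and leaving out the highest 5% of cells by UMIs was an alternative. Counts were summed per library and cell set, and gated cells were compared with other phagocytes by edgeR 4.0.16 in R 4.3.3 (TMM, filterByExpr, library block, quasi-likelihood test, Benjamini-Hochberg), with gate genes left out. DESeq2 1.42.0 was an alternative. On simulated counts for 7799 genes in this comparison, 86 of 93 genes changed by 2 on the log2 scale and 35 of 98 changed by 1 were recovered, with 3 false calls. Between libraries, log2 ratios of CPM carry exact conditional 95% intervals, shares carry exact Clopper-Pearson intervals, and both cover counting error only. Genes below 0.1 of the level in smooth muscle-gated or fibroblast-gated cells were left out of the ratios as possible free RNA. Zeros were set to a floor of 3 UMIs per library. Named genes were the 12 largest called differences per direction that had the same sign in 4 of 4 libraries and passed the free RNA limit, and the 5 genes per direction whose ratio interval ends farthest from 0 in each pair of libraries, without mitochondrial, ribosomal and provisional gene names; list members could also be named. For shares per cell, cells were also thinned to 2000 UMIs, without those below. With 1 library per group no p-value compares treatments or genotypes. Scaling by TMM factors shifted log2 ratios by 0.17 in Sting-KO AngII against saline and by -0.15 in Sting-KO against WT saline, and by at most 0.03 otherwise. Python 3.11.15 ran the remaining steps.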

Additional observations from a re-analysis of the deposited data

Results flagged for a closer look

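In 3 of the listed or named genes, and in 10 of 3960 genes measured in both genotypes, the difference between AngII and saline inside the gate was at least 2-fold in opposite directions in the 2 genotypes. The difference between genotypes was not tested, since each group is 1 library. Tnf had a log2 ratio of 1.50 in Sting-KO and -1.20 in WT. Cxcl2 had 1.02 in Sting-KO and -1.42 in WT. Bmp2 had -1.68 in Sting-KO and 1.33 in WT, and 1 cell gave 52.9% of its UMIs in Sting-KO saline. No group holds the 4 samples that a check for outlying samples needs.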

How the results depend on the processing

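Treatments and genotypes could not be paired, because each group holds 1 library, and gated cells and other phagocytes were paired by library. With no library block, edgeR called 182 genes higher and 177 lower in gated cells than in other phagocytes, with DESeq2 260 and 333, and with a gate threshold of 5 UMIs 424 higher. Leaving out 1 library gave 223 to 703 higher and 207 to 722 lower. Siglech, Pla2g2d and Slc7a11 lost their calls without the block, and Cd209f without WT saline. Under the alternatives run, no named gene changed sign. Several list medians did. The recruited monocyte median between Sting-KO and WT under saline was 0.53, and -0.079 without the highest 5% of cells by UMIs, where the glucocorticoid median between Sting-KO AngII and saline became -0.060. At 5 UMIs, growth factors against other phagocytes and chemokines between WT AngII and saline turned negative (values below). The gated share of phagocytes was 50.7% in Sting-KO AngII and 36.0% in WT AngII at a threshold of 2 UMIs. At 5 UMIs it was 32.8% in Sting-KO AngII, 23.7% in WT AngII and 85.7% in WT saline. After thinning it was 15.4% in Sting-KO AngII, 12.7% in WT AngII, 51.6% in Sting-KO saline and 78.7% in WT saline. A minimum of 50 UMIs gave 278 genes higher and 37 lower between Sting-KO AngII and saline, 171 and 79 between WT AngII and saline, 40 and 89 between Sting-KO and WT under AngII, 23 and 87 under saline, and 230 and 92 for AngII with genotypes pooled. TMM scaling gave 41 higher under saline. List medians that moved at 5 UMIs, against other phagocytes, were resident 1.36, recruited monocyte -1.68, iron 0.49 and growth factors -0.055. Between Sting-KO AngII and saline they were recruited monocyte 1.13 and class II -1.65. Between WT AngII and saline they were recruited monocyte 1.86, chemokines -0.29 and inflammatory -0.61. Class II became -0.34 between Sting-KO and WT under AngII, and chemokines -0.50 under saline. Pooled AngII medians became recruited monocyte 1.70, class II -0.82, lipid 0.70 and alternative activation -0.094. Without the highest 5% of cells by UMIs, iron became 0.48 against other phagocytes, recruited monocyte 1.03 between Sting-KO AngII and saline, chemokines 0.16 between WT AngII and saline, and chemokines -0.51 and cell cycle 0.28 between Sting-KO and WT under saline. The cause of these moves was not tested. The 264503 UMIs of 45 cells limit every comparison with Sting-KO saline.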
